A study of Mus musculus with 24 samples.

Results

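The genes described here encode proteins of the endothelial diaphragm, glycocalyx, caveolae and cell junctions in mouse liver. They are 10 genes chosen by symbol: Plvap, Emcn, Cav1, Cav2, Cldn5, Ocln, Tjp1, Esam, Jam2 and Jam3. All 10 were found among the 48820 entries of each of the 4 count tables, and each symbol occurred once per table. The genes were chosen for their known roles with earlier results of these data known, so that their counts beside the shares over all genes are a description, and a change of them in hepatic endothelial cells (ECs) was to be read beside the same change in whole liver.

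ECs were sorted as CD45-CD31+ cells from Gdf2/Bmp10 HSC-KO mice and from control mice, named WT in the column names (3 mice each). HSC-KO mice carry floxed Gdf2 and Bmp10 alleles and Lrat Cre, a Cre line that deletes them in hepatic stellate cells (HSCs). Whole livers of the same genotypes were sequenced from 3 mice each. Liver macrophages, sorted as CD45+Ly6C-F4/80+CD64+ cells, came from HSC-KO mice and their controls and from Smad4 fl/fl Vav1 Cre mice (Smad4 cKO), in which Cre acts in haematopoietic cells, and Smad4 fl/fl controls (3 per group). All mice were labelled C57BL/6 (C57BL/6J in the methods), aged 8 to 10 weeks for sorted cells and 12 weeks for livers. Both sorted cell types were sequenced from 3 of the HSC-KO or control mice. Gdf2 and Bmp10 encode circulating BMP ligands that signal through the endothelial receptor ALK1.

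Sinusoidal ECs of the liver differ from the ECs of most capillaries. They are pierced by open fenestrae that lack a diaphragm, rest on little basement membrane and form a permeable wall between blood and hepatocytes. When they take on the form of continuous capillaries, as in chronic liver disease, fenestrae are lost and proteins of diaphragms and caveolae appear. Plasmalemma vesicle-associated protein, encoded by Plvap, builds the diaphragms of fenestrae and caveolae. Caveolin-1 and caveolin-2 form the caveolar coat. Claudin-5, occludin and the scaffold ZO-1 (Tjp1) belong to tight junctions, ESAM, JAM-B (Jam2) and JAM-C (Jam3) are immunoglobulin-type adhesion proteins of endothelial contacts, and endomucin (Emcn) is a sialomucin of the endothelial surface.

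Cav1 and Cav2 are neighbours on the plus strand of chromosome 6, 17219 bases apart, and their values parted in HSC-KO ECs. Their promoter windows are shown for that reason, with that of Emcn, whose level was raised in both ECs and livers. Each window runs from 250 bases before to 50 bases after a transcription start, 5′ to 3′, taken from RefSeq on build GRCm38.p6. Windows were found for Cav1 (2 starts, 1305 bases apart), Cav2, Cldn5, Tjp1, Ocln (2 starts) and Emcn, and none was matched for Plvap, Esam, Jam2 or Jam3. The windows printed lie at chr6:17280935-17281234 (Cav2), chr6:17306085-17306384 and chr6:17307390-17307689 (Cav1) and chr3:137340828-137341127 (Emcn), all on the plus strand. Capitals mark the letters CAGAC, found in SMAD binding sites, and CCACACCC, found in sites of KLF factors, on either strand.
Cav2: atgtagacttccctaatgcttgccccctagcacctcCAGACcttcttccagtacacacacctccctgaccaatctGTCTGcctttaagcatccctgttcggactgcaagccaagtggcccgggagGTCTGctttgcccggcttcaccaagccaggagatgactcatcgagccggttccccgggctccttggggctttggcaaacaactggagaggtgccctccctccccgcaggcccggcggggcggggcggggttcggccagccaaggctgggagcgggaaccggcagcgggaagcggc
Cav1, first start: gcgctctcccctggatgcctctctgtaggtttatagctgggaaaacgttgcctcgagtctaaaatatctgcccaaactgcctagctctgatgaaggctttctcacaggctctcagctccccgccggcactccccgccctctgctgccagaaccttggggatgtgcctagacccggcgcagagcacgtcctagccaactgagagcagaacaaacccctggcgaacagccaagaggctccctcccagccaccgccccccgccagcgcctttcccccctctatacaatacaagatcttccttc
Cav1, second start: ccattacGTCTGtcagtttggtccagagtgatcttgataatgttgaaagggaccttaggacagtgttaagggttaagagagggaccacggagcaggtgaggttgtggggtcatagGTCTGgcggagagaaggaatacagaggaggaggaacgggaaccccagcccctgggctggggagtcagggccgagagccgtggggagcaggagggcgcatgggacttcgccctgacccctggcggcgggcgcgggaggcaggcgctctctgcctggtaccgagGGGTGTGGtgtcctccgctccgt
Emcn: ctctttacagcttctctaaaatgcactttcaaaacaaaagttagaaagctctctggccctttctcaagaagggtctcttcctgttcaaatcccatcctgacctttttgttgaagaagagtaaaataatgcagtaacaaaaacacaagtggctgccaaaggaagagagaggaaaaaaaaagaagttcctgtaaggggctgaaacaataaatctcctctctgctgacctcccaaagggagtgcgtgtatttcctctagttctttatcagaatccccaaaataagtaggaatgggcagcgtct

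CAGAC occurred 3 times in the Cav2 window, 2 times in the window of the second Cav1 start and 2 times in that of Cldn5. It was thus in 3 of the 8 windows of these genes, against 49.6% of 32851 windows of the same length. CCACACCC occurred in 1 of the 8 windows, that of the second Cav1 start, against 3.56% of all windows. The letters CCGGAAGT, found in sites of ETS factors, were in none of the 8 windows and in 3.89% of all windows. The same held for AGATAA, found in sites of erythroid and endothelial zinc finger factors of the GATA family, with 11.2% of all windows. Of the longer letters also read as SMAD sites, GGCGCC was in none of the 8 windows and in 11.9% of all. The palindrome GTCTAGAC was in none and in 0.213% of all. Each was searched on both strands, and none of these motifs contains another. The windows of Cav2 and the second Cav1 start were rich in G and C (64.3 and 62.3%), and the Emcn window was not (41%).

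The EC libraries held 66694659 to 87879751 counts, the liver libraries 73941995 to 104087482 and the macrophage libraries 60911527 to 110879155. Gdf2 had 241, 108 and 76 counts in control ECs and 0, 5 and 0 in HSC-KO ECs. In livers it fell from 2036, 720 and 2030 counts to 287, 178 and 189 counts. Bmp10 had 15, 4 and 9 counts in control ECs and 0 in each HSC-KO EC library, and it fell from 362, 209 and 180 to 7, 22 and 8 counts in livers. Smad4 had 3894, 3185 and 4416 counts in Smad4 fl/fl macrophages and 1669, 1461 and 1289 in Smad4 cKO macrophages. Xist, a transcript of female cells, had 1765, 0 and 0 counts in control ECs and 2391, 0 and 3491 in HSC-KO ECs. In livers it had 33450, 54369 and 52168 counts in controls and 31392, 44790 and 12 in HSC-KO. Macrophages had 0, 0 and 1206 in controls, 0, 7203 and 7959 in HSC-KO mice and at most 3 in the Smad4 comparison. The HSC-KO and control groups were thus not matched for sex, and an Xist covariate was fitted as an alternative. Of all counts, 12 pan-endothelial markers took 0.924 to 1.11% in control ECs and 1.33 to 1.57% in HSC-KO ECs, and none of them was at 0. 8 hepatocyte markers took at most 0.0102% and 8 macrophage markers at most 0.00335% in any EC library. 6 sinusoidal markers took 1.27 to 1.62% in control ECs, 0.251% in HSC-KO replicate 1 and 0.0440 and 0.0471% in the other HSC-KO libraries, so that replicate 1 stood apart. Results in ECs are therefore given with and without it where it mattered. Within each table of sorted cells from HSC-KO and control mice, the column names give every library a different animal number.

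Of the 10 genes, 4 rose in HSC-KO ECs and none fell. Levels are given as CPM, the counts of a gene scaled to a common library size with TMM factors, and a gene was called when the Benjamini-Hochberg adjusted p of edgeR's quasi-likelihood test over all genes was below 0.05 and the absolute log2 fold change was above 1. All 10 passed the filter on low counts. The 4 called genes were Plvap, Emcn, Cav1 and Jam3, where 13.7% of 16053 tested genes were called and 7.68% were called higher. The median log2 fold change of the 10 genes was 0.46, and that of all tested genes was 0.0048. In livers, 5 of the 10 genes were called, 4 of them higher and 1 lower, where 2.48% of 17118 tested genes were called (1.03% higher and 1.45% lower). The median there was 0.69, and that of all tested genes was -0.0098. Beside these liver values, 8 stellate and fibroblast markers took 0.0247 to 0.0349% of the counts in control livers and 0.0474 to 0.0532% in HSC-KO livers, and 8 macrophage markers 0.0331 to 0.0574% and 0.00280 to 0.00417%. Their part in the liver changes was not tested. The groups did not overlap for 5 of the 10 genes in ECs, where 40.4% of tested genes had groups that did not overlap. They did not overlap for 8 of the 10 in livers, where 19.7% of tested genes did so. In bulk samples, fewer cells of a type and less RNA per cell cannot be told apart.

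**Figure D1:**
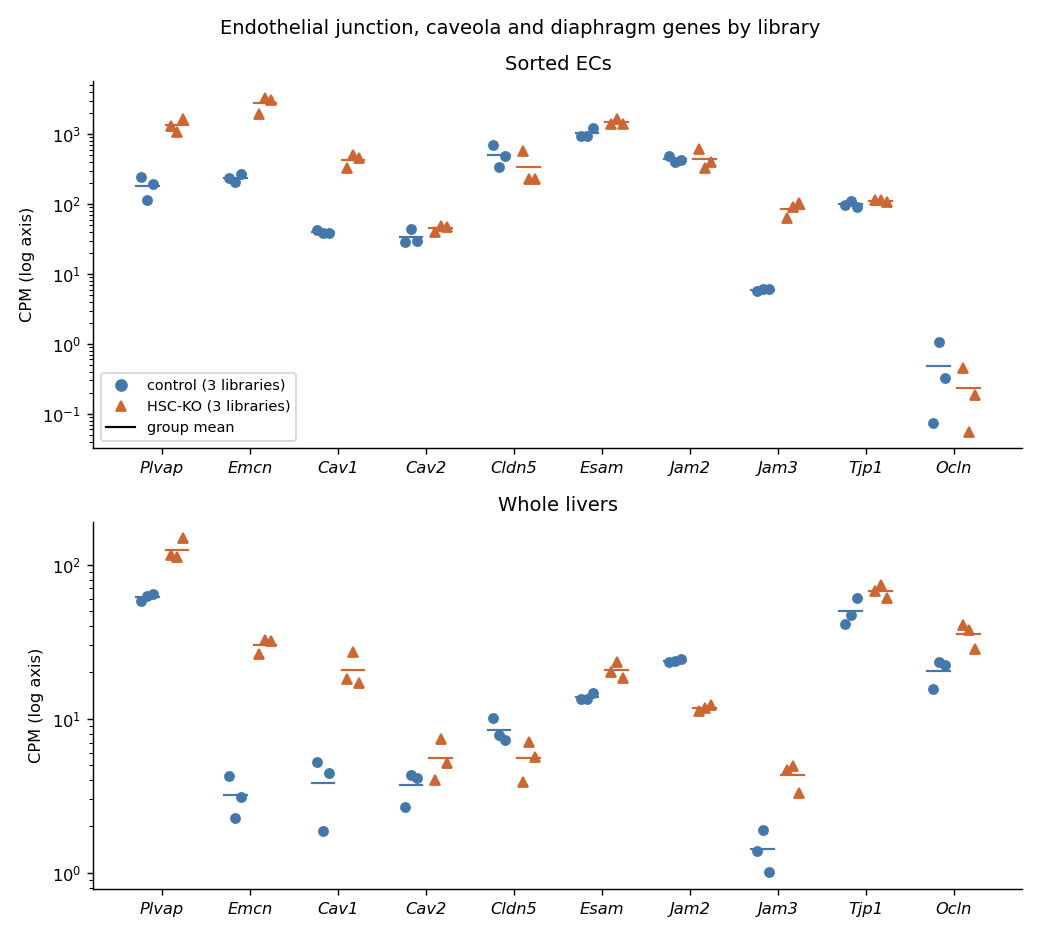
CPM of each gene in each library of sorted ECs (top) and whole livers (bottom), on log axes; circles are control libraries, triangles HSC-KO libraries and lines group means. In ECs the HSC-KO libraries of Plvap, Emcn, Cav1, Jam3 and Esam lie above all control libraries; in livers Jam2 and Cldn5 lie below them.

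Plvap lies at chr8:71497765-71511752 on the minus strand (GRCm38, GENCODE vM21, as for all positions here). In ECs it had 242, 114 and 197 CPM in the control libraries and 1310, 1077 and 1638 CPM in the HSC-KO libraries. Every HSC-KO library was thus far above every control library. The mean rose from 184 ± 64.6 to 1341 ± 282 CPM (SD, n = 3), a log2 fold change of 2.86 (standard error 0.31, edgeR adjusted p = 0.00092). In livers it had 57.7, 62.5 and 64.6 CPM in controls and 115, 113 and 148 CPM in HSC-KO. The groups did not overlap there either, but the log2 fold change was 1.02 (standard error 0.14, edgeR adjusted p = 0.012), just past the threshold of 1. That call was lost in 8 of 15 alternatives, among them the fits without liver control replicate 1 (log2 fold change 0.99), 2 (1.05) or 3 (1.08) or HSC-KO replicate 3 (0.89) and the scaling to pan-endothelial counts (0.78, edgeR adjusted p = 0.064). The change in ECs exceeded that in livers by 1.88 on the log2 scale (standard error 0.36, edgeR adjusted p = 0.0088 for the interaction over 12 libraries).

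Emcn lies at chr3:137341067-137432185 on the plus strand. In ECs it had 240, 205 and 273 CPM in controls and 1941, 3330 and 3138 CPM in HSC-KO libraries. HSC-KO replicate 1, the library that kept more sinusoidal marker counts, was the lowest of the 3 and still far above the controls. Emcn rose from 239 ± 34.1 to 2803 ± 752 CPM, a log2 fold change of 3.55 (standard error 0.27, edgeR adjusted p = 0.00019). Its levels in livers were 4.23, 2.28 and 3.10 CPM in controls and 26.3, 32.4 and 32.1 CPM in HSC-KO. This rise of 3.24 (standard error 0.24, edgeR adjusted p = 0.0010) was the only one in livers that stayed called in all 15 alternatives. The changes in ECs and livers differed by 0.35 (standard error 0.37, edgeR adjusted p = 0.67), which leaves a difference of either sign possible.

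Cav1, at chr6:17306335-17341452, had 43.3, 38.2 and 39.3 CPM in control ECs and 333, 497 and 463 CPM in HSC-KO ECs. The control libraries lay close together and the HSC-KO libraries well above them. Cav1 rose 10.7-fold, a log2 fold change of 3.42 (standard error 0.19, edgeR adjusted p = 7.0e-05). In livers it had 5.25, 1.88 and 4.43 CPM in controls and 18.2, 27.1 and 17.2 CPM in HSC-KO. It rose by 2.43 (standard error 0.38, edgeR adjusted p = 0.019), and the call was lost without liver control replicate 3 (adjusted p = 0.079), HSC-KO replicate 1 (0.065) or HSC-KO replicate 2 (0.056). It was also lost with the replicate number as a block (2.49, edgeR adjusted p = 0.070) and in the test of a change beyond 1 on the log2 scale (adjusted p = 0.11). The difference between ECs and livers was 1.03 (standard error 0.45, edgeR adjusted p = 0.21), and it was called only without liver control replicate 2 (1.36, adjusted p = 0.030).

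Cav2, at chr6:17281185-17289115, needs caveolin-1 to reach the cell surface in most cells. It had 29.1, 44.2 and 29.9 CPM in control ECs and 39.5, 49.1 and 46.9 CPM in HSC-KO ECs. One control library lay among the HSC-KO values, and the log2 fold change was 0.39 (standard error 0.20, edgeR adjusted p = 0.21). In livers the groups overlapped as well, with 2.66, 4.31 and 4.14 CPM against 3.99, 7.38 and 5.20 CPM (log2 fold change 0.58, standard error 0.30, edgeR adjusted p = 0.50). The balance of the 2 caveolins was compared per kilobase of exon, since levels of different genes depend on their length. The Cav1 to Cav2 ratio was 1.44, 0.838 and 1.27 in control ECs and 8.17, 9.81 and 9.56 in HSC-KO ECs. It was 1.91, 0.421 and 1.04 in control livers and 4.41, 3.56 and 3.20 in HSC-KO livers. In both tables every HSC-KO library was above every control library.

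**Figure D2:**
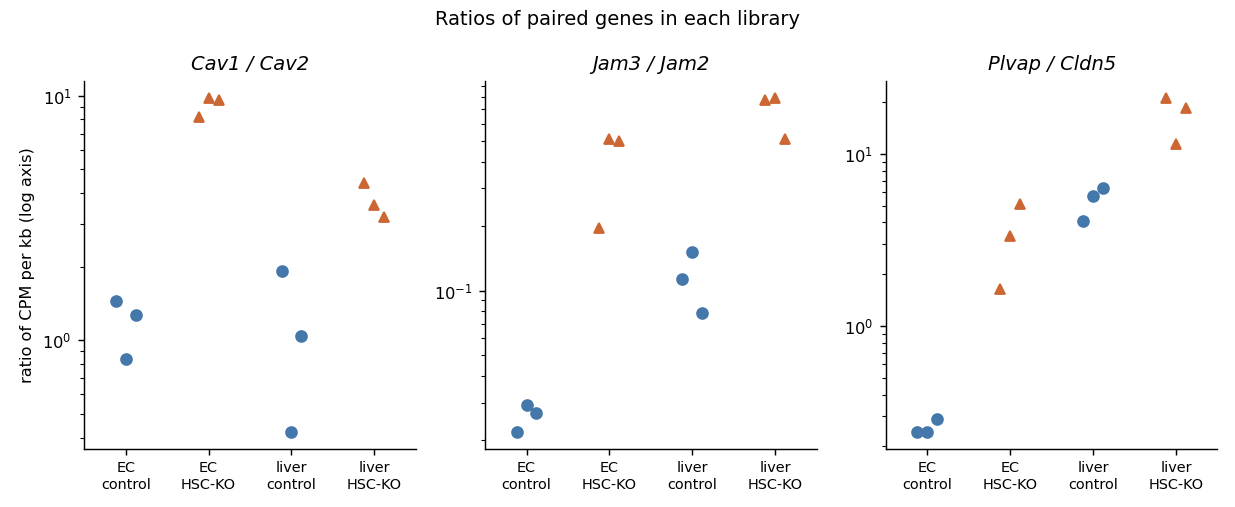
Ratio of CPM per kilobase of exon for Cav1 over Cav2, Jam3 over Jam2 and Plvap over Cldn5 in each EC and liver library, on log axes; circles are control and triangles HSC-KO libraries. For each ratio the HSC-KO libraries of ECs lie above the control ECs and those of livers above the control livers, and Cav1 over Cav2 reaches 9.81 in ECs.

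Other genes of the caveola rose in ECs beside Cav1. Of 10 coat and assembly genes in the tables, 7 were tested, 4 were called higher and none lower, where 7.68% of all tested genes were called higher. The median log2 fold change of the 7 was 2.51, against 0.0048 over all tested genes. Prkcdbp (cavin-3) rose from 1.35 ± 0.547 to 121 ± 36.7 CPM, a log2 fold change of 6.47 (standard error 0.43, edgeR adjusted p = 0.00012). Ehd2, an ATPase at the caveolar neck, rose by 5.18 (adjusted p = 7.4e-05), and Ehd4, of the same family, by 3.13 (adjusted p = 0.00013). Ptrf (cavin-1), which is needed for caveolae to form, rose by 2.51 (edgeR adjusted p = 0.0061), whereas Sdpr (cavin-2) had a log2 fold change of 0.26 (adjusted p = 0.35). Both were named after their values were seen. In livers 2 of 8 tested genes of this list were called higher, Ehd2 (2.05, edgeR adjusted p = 0.012) and Ehd4 (1.02, adjusted p = 0.0093), where 1.03% of all tested genes were called higher, and none was called lower. The interaction was called for 4 of 8 tested genes of this list and 6.53% of all tested genes, among them Prkcdbp (4.03, edgeR adjusted p = 0.0053), Ehd2 (3.16, adjusted p = 0.00090) and Ehd4 (2.15, adjusted p = 0.00037), with the larger change in ECs.

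Of the tight junction genes proper, none of the 3 was called in ECs. Cldn5, at chr16:18776847-18778262 and made of 1 exon, had 706, 335 and 487 CPM in control ECs and 569, 231 and 229 CPM in HSC-KO ECs. HSC-KO replicate 1 lay within the control range and the other 2 below it, giving a log2 fold change of -0.57 (standard error 0.42, edgeR adjusted p = 0.40). Without HSC-KO replicate 1 the log2 fold change was -1.15 and the gene was called lower (edgeR adjusted p = 0.039). Its levels in livers were 10.1, 7.87 and 7.29 CPM in controls and 3.87, 7.06 and 5.68 CPM in HSC-KO. The groups did not overlap, but the log2 fold change of -0.61 (standard error 0.25) did not pass the test (edgeR adjusted p = 0.37). The Plvap to Cldn5 ratio per kilobase was 0.243 to 0.288 in control ECs and 1.64 (replicate 1), 3.32 and 5.10 in HSC-KO ECs.

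Tjp1, at chr7:65296165-65527781 on the minus strand, encodes the scaffold that ties claudins and JAM proteins to actin. It had 98.7, 110 and 90.1 CPM in control ECs and 113, 114 and 108 CPM in HSC-KO ECs, with overlapping groups (log2 fold change 0.16, standard error 0.12, edgeR adjusted p = 0.40). In livers it had 41.3, 47.1 and 61.0 CPM against 67.5, 73.9 and 60.8 CPM, also overlapping (0.44, standard error 0.17, adjusted p = 0.31).

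Ocln, at chr13:100496507-100552718 on the minus strand, was close to absent from ECs. It had 6, 66 and 24 counts in control libraries and 43, 4 and 15 counts in HSC-KO libraries, and its log2 fold change of -1.05 had a standard error of 1.07 (edgeR adjusted p = 0.56). The value was -2.00 without HSC-KO replicate 1 and 0.23 without control replicate 2, so that its sign rested on 1 library. In livers, where occludin is a protein of hepatocyte and cholangiocyte junctions, it had 15.5, 23.4 and 22.4 CPM in controls and 40.7, 37.4 and 28.2 CPM in HSC-KO. The groups did not overlap, and the log2 fold change of 0.80 (standard error 0.20) did not pass the test (edgeR adjusted p = 0.11). Beside it, 8 hepatocyte markers took 10.8 to 13% of the counts in control livers and 13.1 to 17.1% in HSC-KO livers, while 6 cholangiocyte markers took 0.00580 to 0.00859% and 0.00253 to 0.00343%. The part of either in the Ocln values was not tested.

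Among the adhesion proteins, Esam, at chr9:37528078-37538319, had 946, 935 and 1234 CPM in control ECs and 1416, 1650 and 1423 CPM in HSC-KO ECs. The groups did not overlap, but the log2 fold change of 0.53 (standard error 0.18) did not pass the test (edgeR adjusted p = 0.088). Its levels in livers were 13.5, 13.5 and 14.7 CPM against 20.1, 23.4 and 18.4 CPM, again without overlap (0.57, standard error 0.13, edgeR adjusted p = 0.073). The summed pan-endothelial markers were higher in the HSC-KO libraries of the ECs, as given above, and took 0.0325 to 0.0354% of the counts in control livers and 0.0347 to 0.0427% in HSC-KO livers. With ECs scaled to these markers the log2 fold change of Esam was 0.37.

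Jam2 and Jam3 encode related proteins that bind each other across the contact, and they moved differently. Jam3, at chr9:27097384-27155421 on the minus strand, had 5.63, 6.18 and 6.10 CPM in control ECs and 63.1, 90.4 and 105 CPM in HSC-KO ECs. This was the largest change among the 10 genes in ECs, a 14.5-fold rise (log2 fold change 3.85, standard error 0.22, edgeR adjusted p = 7.0e-05). In livers it had 1.39, 1.89 and 1.01 CPM against 4.64, 4.94 and 3.29 CPM and rose by 1.58 (standard error 0.31, edgeR adjusted p = 0.042). The liver call rested on few counts, 91 to 415 per library, and was lost in 9 of 15 alternatives, among them the fits without any 1 of the control libraries or without HSC-KO replicate 1 or 2 (log2 fold change 1.40 to 1.85, edgeR adjusted p = 0.063 to 0.15). The change was larger in ECs by 2.31 (standard error 0.35, edgeR adjusted p = 0.0022), and this difference stayed called in all 19 alternatives. Gm48796, an antisense gene, overlaps 1159 bases (36.22%) of the Jam3 exons and has no entry of its own among the deposited counts. Since the use of strand in counting is not stated, whether its reads were counted for Jam3 cannot be told.

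Jam2, at chr16:84774123-84825928 on the plus strand, had 486, 401 and 428 CPM in control ECs and 610, 334 and 400 CPM in HSC-KO ECs. HSC-KO replicate 1 lay above all controls and replicates 2 and 3 below them, and the log2 fold change was 0.031 (standard error 0.23, edgeR adjusted p = 0.95). Without replicate 1 it was -0.26 and was not called. In livers Jam2 had 23.4, 23.5 and 24.3 CPM in controls and 11.3, 11.8 and 12.2 CPM in HSC-KO. The libraries of a group were nearly equal, and the log2 fold change of Jam2 was -1.02 (standard error 0.11, edgeR adjusted p = 0.0039). Without liver control replicate 3 or HSC-KO replicate 1 the value was -0.98 in both cases and missed the threshold of 1, with edgeR adjusted p of 0.031. Beside it, the 6 sinusoidal markers took 0.0365 to 0.05% of the counts in control livers and 0.00604 to 0.00853% in HSC-KO livers, and their part in the Jam2 values was not tested. The difference between ECs and livers was 1.08 (standard error 0.28, edgeR adjusted p = 0.036), and of the 12 fits that left out 1 library it was called only in that without EC HSC-KO replicate 2 (1.25). The other 11 gave 0.79 (without EC HSC-KO replicate 1) to 1.16. The Jam3 to Jam2 ratio per kilobase was 0.0219 to 0.0291 in control ECs and 0.196 (replicate 1), 0.511 and 0.498 in HSC-KO ECs. It was 0.0784 to 0.152 in control livers and 0.508 to 0.793 in HSC-KO livers.

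**Figure D3:**
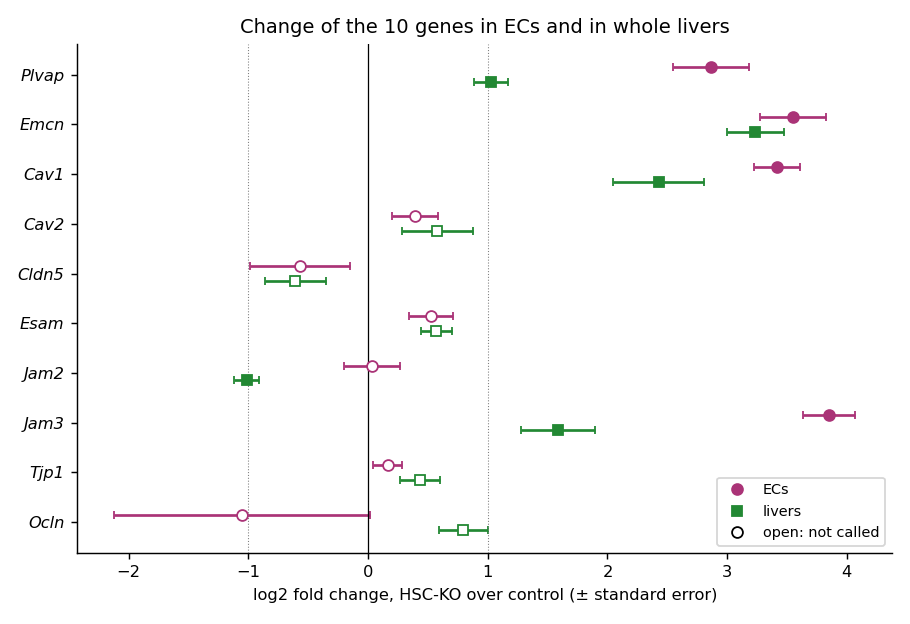
Log2 fold change (HSC-KO over control, bars are standard errors, n = 3 per group) of the 10 genes in ECs (circles) and livers (squares); filled symbols were called, and dotted lines mark a log2 fold change of -1 and 1. Jam3 (3.85 and 1.58) and Plvap (2.86 and 1.02) changed more in ECs than in livers, while Jam2 was called only in livers (-1.02).

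For 3 of the 10 genes, Plvap, Jam2 and Jam3, the interaction was called, where 6.53% of 18875 tested genes were called. Each change was measured against control mice of its own age. Sorted cells and livers came from mice of different ages, and sorting, age and cell mixture cannot be told apart in this difference. Per count of Mmrn2, an endothelial marker, Plvap had 3.21 to 3.42 counts in control livers and 0.10 to 0.201 in control ECs. Jam3 had 0.0512 to 0.0971 and 0.00468 to 0.00543, and Jam2 1.21 to 1.39 and 0.352 to 0.404. Tjp1, not called, was also higher in livers (2.42 to 3.1 and 0.0754 to 0.0968). Emcn overlapped (0.117 to 0.251 and 0.180 to 0.228). The part of other liver cells was not tested.

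The order of levels per kilobase in ECs can be given from the means over 3 libraries. In control ECs Esam (362 ± 59.2 CPM per kb) and Cldn5 (360 ± 132) were highest and overlapped, followed by Plvap (92.7 ± 32.5), Jam2 (72.5 ± 7.2) and Emcn (44.2 ± 6.31). Plvap and Jam2 overlapped as well. Emcn lay below both. Tjp1 (12.8 ± 1.29), Cav1 (11.7 ± 0.782) and Cav2 (10.3 ± 2.54) overlapped with each other and lay above Jam3 (1.86 ± 0.0930) and Ocln (0.116 ± 0.122). In HSC-KO ECs Plvap (675 ± 142 CPM per kb), Esam (522 ± 46.5) and Emcn (518 ± 139) were highest and overlapped, and Cldn5 (242 ± 138) overlapped Emcn. Cav1 (125 ± 25.1) lay above Jam2 (74.1 ± 23.8) in its mean but overlapped it in range. Jam3 (27 ± 6.68), which was below Cav2 in every control library, was above it in every HSC-KO library (Cav2, 13.5 ± 1.51 CPM per kb).

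In the wider tight junction list Cldn15 rose most in ECs. Of 39 other tight junction genes in the tables, 25 were tested in ECs, 3 were called higher and 1 lower, a share near the 13.7% of all tested genes, with a median log2 fold change of 0.099 against 0.0048. Cldn15, a pore-forming claudin, rose from 4.85 ± 2.14 to 45.7 ± 19.0 CPM (log2 fold change 3.24, edgeR adjusted p = 0.0028). Magi1 (1.28, adjusted p = 0.016) and Cgnl1 (1.26, adjusted p = 0.0022), both junction scaffolds, rose, and Amotl2, an angiomotin, fell by 1.03 (edgeR adjusted p = 0.018). In livers 33 genes of this list were tested and none was called higher. Cldn2, a claudin of pericentral hepatocytes named after its values were seen, was the 1 called lower (-1.07, edgeR adjusted p = 0.041), where 1.45% of all tested genes were called lower.

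Of 20 adherens junction and contact genes, all tested in ECs, 2 were called higher and 1 lower, again near the 13.7% of all tested genes, and the median log2 fold change was 0.029. Jup, which encodes plakoglobin, rose from 59.1 ± 7.63 to 308 ± 57.4 CPM (log2 fold change 2.38, edgeR adjusted p = 0.00020), and Mllt4 (afadin) rose by 1.2 (adjusted p = 0.0011). Cdh13 (T-cadherin) fell from 409 ± 125 to 22.7 ± 16.9 CPM (-4.17, edgeR adjusted p = 0.0027). In livers 1 gene of the list was called higher and 2 lower, where 2.48% of all tested genes were called. Cdh13 fell there by 4.46 (edgeR adjusted p = 0.0010). Ptprb (VE-PTP, -1.14, edgeR adjusted p = 0.016) fell and Cdh1 (E-cadherin, 1.51, adjusted p = 0.021) rose, and both were named after their values were seen.

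Of 23 barrier regulators tested in ECs, 2 were called higher and none lower, near the 7.68% of all tested genes called higher. These were S1pr1, a receptor of sphingosine 1-phosphate (1.38, edgeR adjusted p = 0.014), and Sh2d3c (1.30, adjusted p = 0.0031), and none of the 24 tested in livers was called. Of 8 linkers of membrane and cytoskeleton, Rdx (1.72, edgeR adjusted p = 0.00048), Marcks (1.33, adjusted p = 0.0036) and Cald1 (1.26, adjusted p = 0.0012) rose in ECs, where 7.68% of all tested genes were called higher, and none fell. None was called in livers.

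The other sialomucins moved with Emcn in part. Cd34, a surface sialomucin of continuous capillaries, rose from 28.3 ± 7.91 to 839 ± 228 CPM in ECs (log2 fold change 4.89, edgeR adjusted p = 0.00012) and by 3.63 in livers (adjusted p = 0.016). Podxl rose by 1.89 in ECs (edgeR adjusted p = 0.00084) and by 2.06 in livers (adjusted p = 0.0026). Cd164 had -1.0 in ECs with an adjusted p of 0.0025 in edgeR's test, just short of the fold threshold, and -0.41 in livers (adjusted p = 0.18). Podxl2 had 1.15 in ECs (edgeR adjusted p = 0.66).

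**Figure D4:**
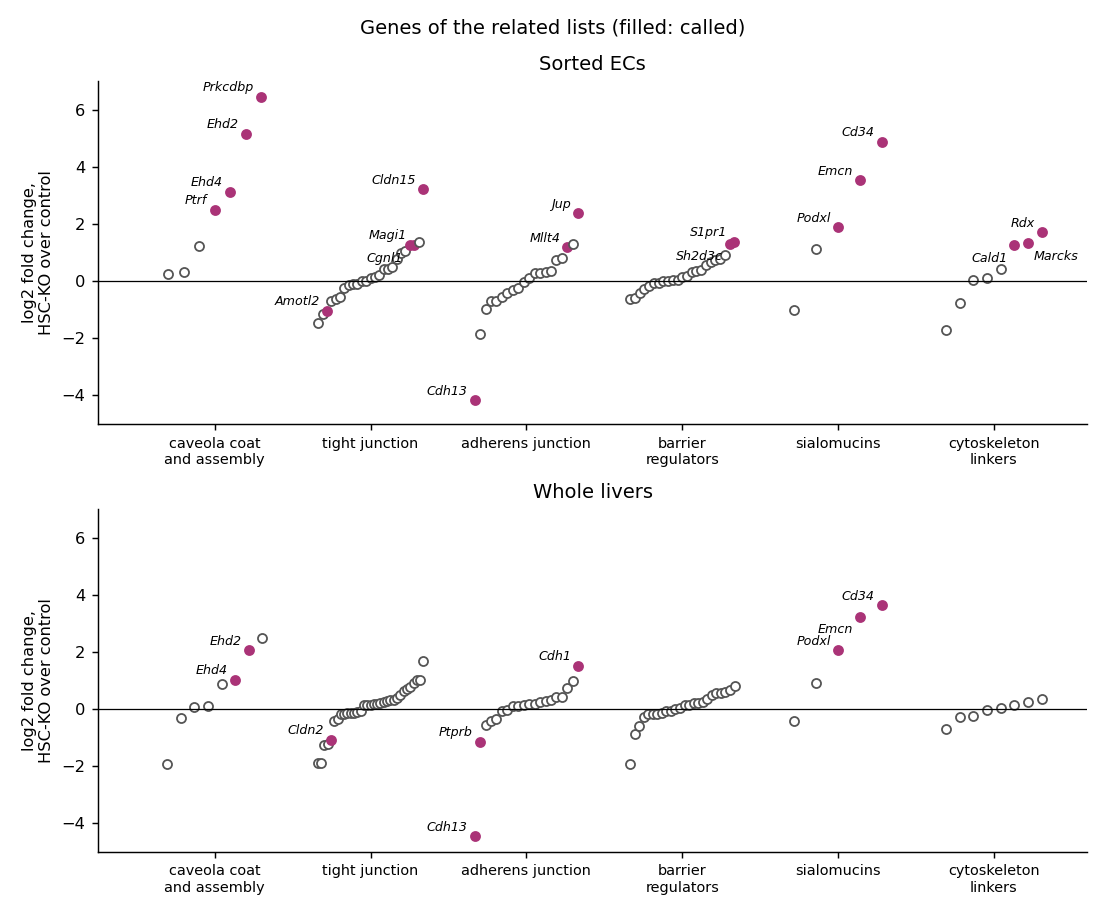
Log2 fold change (HSC-KO over control) of every tested gene of the 6 related lists in ECs (top) and livers (bottom); filled points were called and are named. The 4 called caveola genes in ECs lie between 2.51 and 6.47, and Cdh13 is the lowest point in both panels.

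Over all 24 libraries, each gene was set beside the 3 genes with the most similar log2 CPM (Pearson r, among 8284 genes whose mean log2 CPM in ECs reached 3). These values are descriptive, since the libraries of a cell type share most of their differences. For Cav1 they were Unc5b (r = 0.980), C1qtnf9 (0.975) and Smtn (0.975), whereas for Cav2 they were Prrg1 (0.958), Arhgef10 (0.955) and Sorbs3 (0.948). For Jam3 they were Podxl (0.967), Magi1 (0.967) and Uaca (0.965), and for Jam2 Adgrf5 (0.990), Syt7 (0.985) and Cdc42ep1 (0.982). Emcn was most like Fabp4 (0.977), Limch1 (0.969) and Kcnj8 (0.966), and Plvap like Sox13 (0.973), Plec (0.971) and N4bp3 (0.970). The nearest genes were Bace2, Ptprb and Sema6a for Cldn5 (0.986 to 0.989), Myct1, Mmrn2 and S100a16 for Esam (0.988 to 0.991), and Myo1d, Tns2 and Nckap1 for Tjp1 (0.985 to 0.994). For Ocln they were Rhobtb1 (0.970), Pdxdc1 (0.944) and Mtfr1 (0.943). None of the 10 genes had another of them among its 3 nearest.

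In sorted macrophages most of the 10 genes were found at levels that differed widely within a group. Esam had 71, 1329 and 498 counts in the control macrophages and 38, 9 and 278 in those of HSC-KO mice. Mmrn2, an endothelial marker that is also among the 3 nearest to Esam over all libraries, these included, had 41, 1383 and 554 and 26, 8 and 448 counts in the same libraries. The ratio of Esam to Mmrn2 counts was 0.621 to 1.73 in these libraries, 1.81 to 2.23 in the Smad4 fl/fl and Smad4 cKO libraries and 0.788 to 1.03 in control ECs. The ratio of Plvap to Mmrn2 counts was 0.516 to 21.1 in macrophages of HSC-KO mice and their controls and 0.10 to 0.201 in control ECs, and that of Cav2 was 0 to 42.1 and 0.0242 to 0.0388. Esam and Mmrn2 were both highest in control replicate 2 and lowest in HSC-KO replicate 2, as a description of these libraries. The 12 pan-endothelial markers together took 0.0454 to 0.0569% of the counts in control macrophages and 0.0935 to 0.150% in HSC-KO macrophages, with 1 marker called higher and 3 called lower, and their part in the values of the 10 genes was not tested. In Smad4 fl/fl macrophages Esam had 14646, 4068 and 14102 counts, and in Smad4 cKO macrophages 14452, 20459 and 10895. The pan-endothelial markers took 0.150, 0.0597 and 0.136% of the counts in the former and 0.159, 0.161 and 0.144% in the latter, so that Smad4 fl/fl replicate 2 was low in both.

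In macrophages of HSC-KO mice, 9 of the 10 genes passed the filter and none was called by edgeR, where 11.7% of 16337 tested genes were called and 33.1% had an unadjusted p below 0.05. Ocln was the 1 of the 9 with an unadjusted p below 0.05, and the 1 called by DESeq2. It had 125, 79 and 148 counts in controls and 0, 18 and 20 in HSC-KO libraries, without overlap (log2 fold change -3.59, standard error 1.09, edgeR adjusted p = 0.057, DESeq2 adjusted p = 0.00061). The count of 0 allows up to 0.0349 CPM, for counting error only. Cav2 had 0, 88 and 50 counts in controls and 250, 337 and 203 in HSC-KO libraries, again without overlap (2.17, standard error 1.13, edgeR adjusted p = 0.23). Groups did not overlap in 40.3% of tested genes. Ocln was called without HSC-KO replicate 1 (-3.02, edgeR adjusted p = 0.033) and with the Xist covariate (-5.46, adjusted p = 0.019), and with DESeq2 these made 3 of 13 alternatives. Without control replicate 1 Cav2 was called (1.58, edgeR adjusted p = 0.033), and without HSC-KO replicate 3 Plvap was called lower (-1.88, adjusted p = 0.017). Jam3, at 0, 5 and 12 counts in controls and 0 in each HSC-KO library, was not tested.

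Ocln was also the 1 of 10 genes called in Smad4 cKO macrophages, where 5.43% of 17517 tested genes were called and 29.4% had groups that did not overlap. It had 62, 76 and 112 counts in Smad4 fl/fl libraries and 10, 21 and 4 in Smad4 cKO libraries. All 3 cKO libraries were below all controls, and the log2 fold change was -2.91 (standard error 0.56, edgeR adjusted p = 0.021). The call was lost without Smad4 fl/fl replicate 2 (adjusted p = 0.062) or 3 (0.098) or without cKO replicate 1 (0.089). The log2 fold changes of the other 9 genes lay between -0.094 and 0.50 (edgeR adjusted p of at least 0.52), and Smad4 fl/fl replicate 2 was the lowest library of its group for each of the 9.

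**Figure D5:**
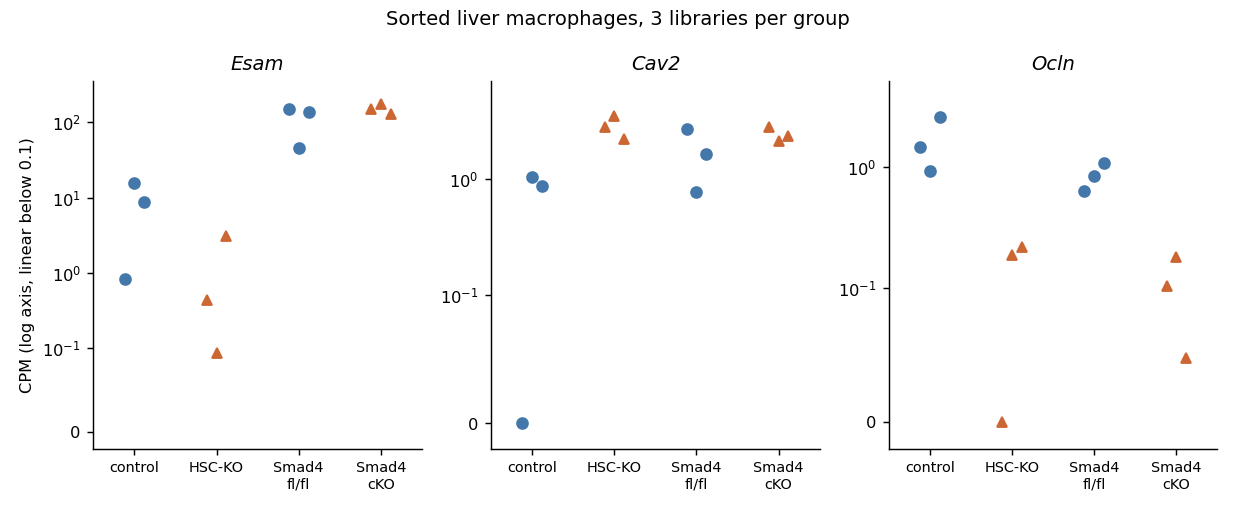
CPM of Esam, Cav2 and Ocln in each of the 12 sorted macrophage libraries (axis logarithmic, linear below 0.1 CPM); circles are the control groups and triangles HSC-KO or Smad4 cKO. Ocln is lower in every HSC-KO and every Smad4 cKO library than in its controls, and Esam varies widely within the HSC-KO comparison.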

How the data were processed

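Deposited values were raw read counts per gene, made by the authors with HISAT2 and featureCounts on mm10 (GRCm38). Tool versions, annotation release, strand setting and handling of multi-mapping reads are not given in the sources used here. The kit was named differently in the labels and the methods of the study. Columns of the EC table are named LSEC where the labels say ECs. Of 48820 entries, 483 share 237 symbols. These were kept as separate rows.

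Counts were filtered with filterByExpr (minimum 10 per gene, 15 in total), scaled by TMM and tested with edgeR 4.0.16 in R 4.3.3 within each table (3 against 3 libraries). The EC and liver tables were joined for the interaction. DESeq2 1.42.0, other scalings and filters, edgeR's test of changes beyond 1 on the log2 scale, an Xist covariate, a replicate block and leaving out each library were alternatives. The tests were also run on simulated counts. Standard errors are the log2 fold change over the root of F. The 10 genes and all lists were chosen with earlier results of these data known. Named list genes were the 3 largest rises and falls among those called in ECs whose mean log2 CPM reached 1, and lists of 6 or fewer genes in full.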

Additional observations from a re-analysis of the deposited data

Results flagged for a closer look

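The change on loss of Gdf2 and Bmp10 in HSCs differed between sorted ECs and whole livers for 3 of the 10 genes. This was by a test of the difference itself over 12 libraries, in which 6.53% of 18875 tested genes were called. Livers also hold other cell types, whose part in these differences was not tested. Jam3 changed more in ECs by 2.31 on the log2 scale (edgeR adjusted p = 0.0022), and Plvap by 1.88 (adjusted p = 0.0088). Jam2, with 0.031 in ECs and -1.02 in livers, differed by 1.08 (edgeR adjusted p = 0.036). The Jam2 difference was called in 7 of 19 alternatives, that of Plvap in 18 and that of Jam3 in 19. EC HSC-KO replicate 1, which kept more sinusoidal marker counts, was the highest of its group for Jam2, and without it the Jam2 difference was 0.79 (edgeR adjusted p = 0.028), short of the fold threshold.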

How the results depend on the processing

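Over 738 combinations of gene, comparison and alternative, 688 stayed on the same side of the threshold, 43 lost a call and 7 gained one, and no called gene changed direction. In ECs 4 genes were called, and 4 to 5 with 1 library left out. In livers 5 were called, but 3 with scaling by library size alone, 3 with scaling to pan-endothelial counts, 1 in the test against a log2 fold change of 1, and 1 to 4 with 1 library left out (1 without control replicate 3, 2 without HSC-KO replicate 1). In macrophages of HSC-KO mice none was called, but 1 with DESeq2, 1 with the Xist covariate and 0 to 1 with 1 library left out. In Smad4 cKO macrophages 1 was called, but 0 with the strict filter, which left Ocln untested, 0 in the test against a log2 fold change of 1, and 0 to 1 with 1 library left out. In the interaction 3 were called, but 1 in the test against a log2 fold change of 1 and 2 to 3 with 1 library left out. Where not stated, the cause was not tested.

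Replicate numbers were not used to pair the samples in the main tests. Same-numbered libraries correlated at 0.0334 to 0.117 in ECs, 0.0133 to 0.0489 in livers, -0.107 to 0.162 and -0.0986 to 0.0989 in the macrophage tables. All 6 EC libraries, 4 of 6 in livers and 2 of 6 in each macrophage table correlated best with their own number. Such low values over all genes do not decide whether same-numbered mice were paired. With the replicate block 4 genes were called in ECs, 4 in livers (Cav1 adjusted p = 0.070), 0 in macrophages of HSC-KO mice, 0 in Smad4 cKO macrophages (Ocln -3.0, edgeR adjusted p = 0.069) and 3 in the interaction.

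Over all genes, 2198 were called in ECs and 1096 in the test against a log2 fold change of 1. In livers it was 425, against 814 with DESeq2, 142 in that test, 271 with the replicate block and 188 to 451 with 1 library left out. The other tables had 1904 and 906 (macrophages of HSC-KO mice), 951, 315 and as few as 566 with 1 library left out (Smad4 cKO), and 1232, 481 and 2003 with DESeq2 (interaction). The median log2 fold change of all genes was 0.0048 in ECs and -0.0098 in livers. With scaling by library size alone it was 0.30 and -0.12, and with scaling to pan-endothelial counts -0.16 and -0.27. Genes called higher and lower in ECs were 1233 and 965, against 1739 and 661 by library size and 1090 and 1261 by pan-endothelial counts. In livers they were 177 and 248, against 154 and 479 by pan-endothelial counts. By library size alone they were 1391 and 323 in the interaction (732 and 500 otherwise) and 645 and 389 in Smad4 cKO macrophages (484 and 467 otherwise).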
